A study of Mus musculus with 17 samples.

Results

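PolyA RNA-seq of mouse macrophages was used to follow 7 matrix metalloproteinase genes (Mmp2, Mmp8, Mmp9, Mmp12, Mmp13, Mmp14 and Mmp19) and 3 genes of their tissue inhibitors (Timp1, Timp2 and Timp3). The 10 genes were taken by symbol from a table of 24453 gene models, and all of them were found. They were picked because Mmp12 and Mmp9 move when AP-1 transcription factors are knocked out, so their values in the knockouts are given as a description and without a test. Every value is in RPKM, reads scaled to the length of the exons and to the mapped reads of the library, and levels can therefore be compared between genes per length.

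Matrix metalloproteinases are zinc-dependent proteases that are made as inactive proenzymes, and together they cut most proteins of the extracellular matrix as well as many cytokines and receptors at the cell surface. TIMPs bind the active site of these enzymes and block it, with Timp2 also taking part in the activation of proMmp2 by the membrane-bound Mmp14. Macrophages use the enzymes to move through tissue and to remodel it, and Mmp12 is known as macrophage elastase. AP-1, a dimer of Jun, Fos and ATF family proteins, is a long known regulator of several of these promoters, the collagenases among them.

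The study asked how members of the AP-1 family differ in what they regulate. Immortalised bone marrow-derived macrophages (iBMDMs) of C57Bl/6EiJ mice, transformed by a retrovirus with myc and Braf V600E and carrying Cas9, were infected with a lentivirus holding 2 guides against Atf3 (Atf3KO), Jun (JunKO) or Jund (JunDKO), or with a scramble control (Scramble), and sorted as pools by a viral marker. Each of these 4 groups gave 2 libraries of vehicle-treated cells at passage 3 to 8. Thioglycollate-elicited macrophages (TGEMs), primary cells flushed from the peritoneum of young adult mice and plated, came from C57Bl/6EiJ (1 vehicle and 1 KLA library) and Balb/cJ (1 vehicle and 2 KLA libraries). The substrain is given as in the labels of the samples, whereas the methods of the study name C57Bl/6J mice as the source of TGEMs. KLA, Kdo2 lipid A, is an agonist of the receptor TLR4 and was given for 1 h. These are 13 of 17 samples in the series, whose other 4, of nascent RNA, were not analysed here.

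Libraries held 1553300 to 18444433 reads, a depth that was worked out from the smallest RPKM steps. All 10 macrophage markers, Csf1r, Adgre1 and Lyz2 among them, were above 1 RPKM in all 13 libraries. Of 10 stromal and mesothelial markers, 7 were above 1 RPKM in every TGEM library (summed RPKM 46.5 to 91.5), whereas none was in any iBMDM library (0 to 0.749). Eosinophil and lymphocyte markers summed to 0 to 6.15 and 0 to 14.7 RPKM in a library. TGEM libraries, labelled male, held 863 to 8676 reads of Xist against 0 to 3 in iBMDMs. The targeted genes were not lower at the level of exonic RNA in 2 of the knockouts, a readout that does not test an edit. The study checked the knockouts by western blot of the proteins. It also reports a substantial loss of Jun binding by ChIP-seq in Jun knockout iBMDMs. Atf3 measured 154 and 169 RPKM in Atf3KO against 80.7 and 77.4 in Scramble. Jun measured 26.2 and 20.5 in JunKO against 17.6 and 18.5, and Jund 6.94 and 6.07 in JunDKO against 9.19 and 8.33. The knockout libraries are therefore called by their labels. The title of Atf3KO replicate 2 carries another date than the other iBMDM libraries, and dates in the titles of TGEM libraries do not cross the strains. What the dates record is not stated.

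Mmp12, Mmp13 and Mmp8 lie in a single cluster on chromosome 9, whereas the other members are spread over the genome. The promoters below are shown because Mmp12 and Mmp13 were both lower in Atf3KO and JunDKO, Mmp8 was lower in Atf3KO and not in JunDKO, and Timp2 stayed near its Scramble level in JunKO and JunDKO. Each is the 250 bases before the annotated start, read 5′ to 3′ on the strand of the gene from RefSeq on GRCm38.p6, with a match to the AP-1 motif TGANTCA in capitals. They span chr9:7347124-7347373 (plus strand) for Mmp12, chr9:7272264-7272513 (plus) for Mmp13, chr9:7558179-7558428 (plus) for Mmp8 and chr11:118355412-118355661 (minus) for Timp2.
Mmp12: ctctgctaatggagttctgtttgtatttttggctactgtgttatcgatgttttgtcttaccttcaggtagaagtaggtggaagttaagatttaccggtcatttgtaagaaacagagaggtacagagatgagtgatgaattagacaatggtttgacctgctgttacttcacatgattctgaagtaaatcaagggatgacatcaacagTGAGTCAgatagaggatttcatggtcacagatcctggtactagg
Mmp13: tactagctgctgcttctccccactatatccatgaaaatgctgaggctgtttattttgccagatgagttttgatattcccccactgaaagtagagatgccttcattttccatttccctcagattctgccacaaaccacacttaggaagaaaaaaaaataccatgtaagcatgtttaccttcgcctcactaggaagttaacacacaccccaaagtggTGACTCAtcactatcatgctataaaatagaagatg
Mmp8: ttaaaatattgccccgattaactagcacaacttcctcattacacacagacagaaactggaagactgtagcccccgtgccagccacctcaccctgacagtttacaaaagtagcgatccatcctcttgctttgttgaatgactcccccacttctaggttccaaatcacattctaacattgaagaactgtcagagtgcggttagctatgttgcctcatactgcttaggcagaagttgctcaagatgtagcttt
Timp2: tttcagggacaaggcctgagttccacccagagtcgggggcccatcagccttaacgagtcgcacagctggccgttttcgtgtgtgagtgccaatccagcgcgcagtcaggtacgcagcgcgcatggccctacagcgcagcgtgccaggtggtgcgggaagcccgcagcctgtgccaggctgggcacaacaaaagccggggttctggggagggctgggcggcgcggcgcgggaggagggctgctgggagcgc

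The promoter of Mmp12 held TGAGTCA with its first base at position -44, and that of Mmp13 held TGACTCA at position -35, counted back from the start site. No match stood in the windows of Mmp8, Mmp14, Timp1, Timp2 or Timp3, nor in that of a second annotated start of Mmp12 lying 2977 bases upstream. Of 32851 promoters of this length, 6.749% held TGANTCA on either strand. The other motifs searched on both strands were the CRE motif TGACGTCA (1.546% of promoters), PU.1 as GAGGAAGT (2.441%) and the TATA box as TATAAA (12.37%). Among the promoters printed above they matched once in Mmp8, where the PU.1 letters began at position -221 on the minus strand, and once in Mmp13, where TATAAA began at position -16. In the window of the second Mmp12 start, not printed, the PU.1 letters began at position -88 on the minus strand. Promoters were found for 7 of the 10 members, and Mmp2, Mmp9 and Mmp19 had no entry. A match gives the letters only and does not show binding. The printed promoters were picked by values in the knockouts, and a link between matches and those values was not tested.

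In Scramble, Mmp12 was highest at 119 and 142 RPKM, followed by Timp2 at 63.9 and 60.1, and the libraries of these genes did not overlap. Mmp19 (14.3 and 11.8 RPKM), Mmp13 (12.3 and 13.8) and Mmp8 (11.0 and 8.62) came next, and among these the libraries of Mmp19 and Mmp13 overlapped. Mmp9 measured 2.30 and 4.25 RPKM and Mmp2 1.03 and 1.16, and these did not overlap either. Mmp14, Timp1 and Timp3 were at or near 0 in iBMDMs.

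In TGEMs the order was different. Mmp12 reached 1095 to 2487 RPKM and ranked between place 12 and place 36 of all gene models in each of the 5 libraries, whereas it ranked 441 and 329 in the Scramble libraries. Timp2 (159 to 248 RPKM) was second in every TGEM library, and Mmp14 (26.8 to 94.3) was above Mmp19 (23.8 to 60.9) within each of the 5 libraries although their ranges overlapped. Mmp8 spanned 2.99 to 20.1 RPKM, Mmp9 1.62 to 8.41, Timp1 0.971 to 10.6, Timp3 1.75 to 5.66 and Mmp13 1.81 to 4.04. Within each library Mmp8 was above Mmp13 and Timp3, and the order of every other pair among these 5 genes changed from library to library. Mmp2 was lowest at 0.174 to 0.406.

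**Figure D1:**
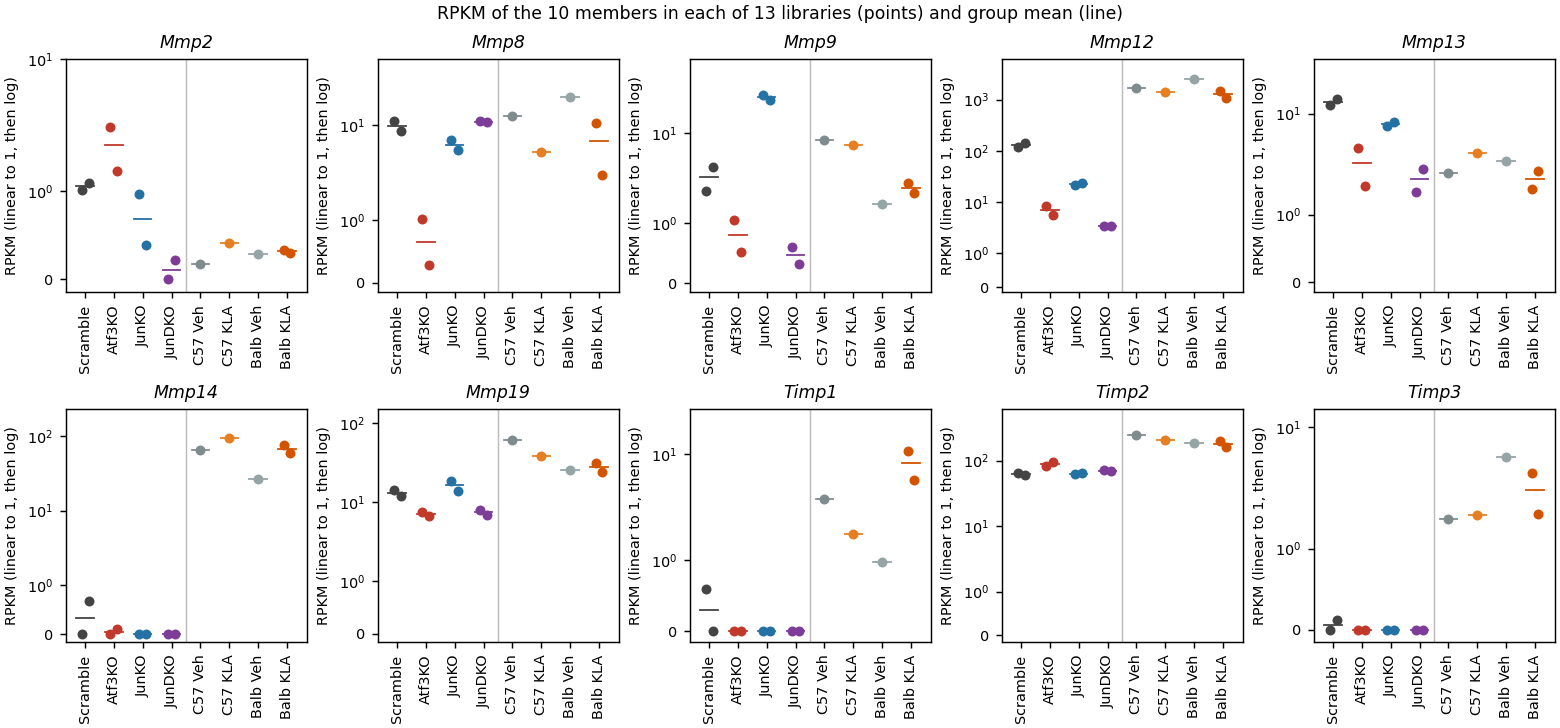
RPKM of each of the 10 genes in 13 libraries (points, y axis linear up to 1 RPKM and logarithmic above) with the mean of each group (line), iBMDM groups left and TGEM groups right of the grey line. Mmp12 stood at 119 and 142 RPKM in Scramble, at 3.33 to 23.7 in the 6 knockout libraries and at 1095 or more in TGEMs, and Mmp14 was near 0 in iBMDMs.

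Mmp14, the membrane-bound enzyme that activates proMmp2, gave 5 reads over all 8 iBMDM libraries, with 0 in each JunKO and JunDKO library. A count of 0 allowed up to 0.340 RPKM in JunKO and 0.0580 in JunDKO, by 3 reads over the group and for counting error only. Timp1 and Timp3, a soluble and a matrix-bound inhibitor, each gave 1 read over the 8 iBMDM libraries. These 3 genes had reads in every TGEM library, but Timp1 had only 2 in the Balb/cJ vehicle library, under the 3 reads used as a floor. Every TGEM library also held the stromal markers given above, which were at 0 to 0.312 RPKM in iBMDMs. Dcn (14.7 to 34.6 RPKM in TGEMs) and Col1a1 (9.05 to 20.0) were among these markers. Their part in these levels was not tested. In such bulk libraries fewer cells of a type and less RNA per cell cannot be told apart, and the kinds of macrophage also differ in origin, culture and label date.

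Of the 7 members that passed the filter on low values, Mmp12 was the one lower by more than 2-fold in all 3 knockouts (model start 7347374 and end 7360461 on the plus strand of chromosome 9, mm10, which is GRCm38). It measured 119 and 142 RPKM in Scramble, 8.35 and 5.53 in Atf3KO, 21.2 and 23.7 in JunKO, with 3.40 and 3.33 in JunDKO. All 6 knockout libraries lay below both Scramble libraries, and the 3 knockouts did not overlap each other. On the log2(RPKM + 1) scale, which understates changes of low values, Mmp12 differed from Scramble by -4.06 ± 0.22 (SE) in Atf3KO cells, by -2.48 ± 0.22 in JunKO cells and by -4.90 ± 0.22 in JunDKO cells. The values rest on 1695 reads in Scramble and 240 to 276 in each knockout group. Each SE of the iBMDM fit uses a spread shared by all groups, although the Atf3KO libraries differed more from each other. A chi-square of read counts between replicates averaged 27.6 per gene in Atf3KO. It was 3.67 to 4.01 in the other iBMDM groups, and this measure grows with depth. In Atf3KO, changes across all genes rose with GC content (Spearman's rho 0.50, where genes are not independent of each other), and Mmp12 at 40.1% GC stood at percentile 7.69 of gene models. With the GC trend removed from each library Mmp12 differed by -3.29 in Atf3KO.

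Mmp13, collagenase-3, lies 64.0 kb from Mmp12 in the same cluster. It measured 12.3 and 13.8 RPKM in Scramble, 4.53 and 1.92 in Atf3KO, 7.49 and 8.33 in JunKO, with 1.69 and 2.81 in JunDKO. Each knockout library lay below both Scramble libraries, with JunKO above the other knockouts. It differed from Scramble by -1.80 ± 0.33 (log2, SE) with Atf3KO, by -0.66 ± 0.33 with JunKO and by -2.13 ± 0.33 with JunDKO. The Atf3KO difference was -1.16 with the GC trend removed and -1.34 without Atf3KO replicate 2, and with a pseudocount of 5 RPKM it was -1.15, beside -1.32 in JunDKO. Mmp13 too was low in GC (41.6%).

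Mmp8, the collagenase known from neutrophil granules, went another way. Its libraries read 11.0 and 8.62 RPKM in Scramble, 1.02 and 0.283 in Atf3KO, 6.97 and 5.50 in JunKO, with 11.1 and 10.8 in JunDKO. Atf3KO lay far below Scramble, JunKO lay below it by less, and JunDKO overlapped it. The fitted differences were -2.74 ± 0.28, -0.58 ± 0.28 and 0.15 ± 0.28 on the log2 scale, the last of which was -0.13 at equal library medians. In Atf3KO the value was -2.23 with the GC trend removed, -1.39 with a pseudocount of 5 RPKM and -4.24 by limma-voom on the recovered reads. Of 10 neutrophil markers 7 were at 0 reads in all 8 iBMDM libraries, Ly6g, S100a9, Camp and Mpo among them. The sum over the list was 37.5 and 36.5 RPKM in Scramble, 51.7 and 33.3 in Atf3KO, 30.4 and 28.5 in JunKO, with 14.1 and 12.5 in JunDKO. Exons of Mmp8 overlap those of Gm31751 on the other strand, and whether reads were counted by strand is not given in the sources used here.

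The gelatinases Mmp9 and Mmp2, which cut denatured collagen and basement membrane collagen, differed from each other. Mmp9, whose model runs from 164948219 to 164955849 on the plus strand of chromosome 2, gave 2.30 and 4.25 RPKM in Scramble, 1.08 and 0.525 in Atf3KO, 26.7 and 23.5 in JunKO, with 0.611 and 0.326 in JunDKO. Thus JunKO stood above every other iBMDM library, and Atf3KO and JunDKO below Scramble. JunKO differed from Scramble by 2.65 ± 0.31 (log2, SE), Atf3KO by -1.22 ± 0.31 and JunDKO by -1.51 ± 0.31. They rest on 37 reads in Scramble, 271 in JunKO, 27 in Atf3KO and 22 in JunDKO. Since these values are low, the pseudocount of 1 RPKM matters, and the differences were -0.50 in Atf3KO and -0.59 in JunDKO with a pseudocount of 5, beside -2.10 and -3.05 by limma-voom on the recovered reads. With quantile normalization Atf3KO was at -0.77.

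Mmp2 was measured at the edge of detection, with 7 to 72 reads per iBMDM group. It stood at 1.03 and 1.16 RPKM in Scramble, 3.08 and 1.42 in Atf3KO, 0.969 and 0.386 in JunKO, with 0 and 0.215 in JunDKO. It passed the filter on low values with its Atf3KO libraries and overlaps Gm45472 on the other strand. The log2 differences were 0.59 ± 0.39, -0.34 ± 0.39 and -0.92 ± 0.39. The first of these ran from 0.15 with the GC trend removed to 1.00 with quantile normalization. The second ran from -0.09 without JunKO replicate 2 to -0.72 by limma-voom, and the third from -0.25 with a pseudocount of 5 to -2.62 by limma-voom.

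Mmp19, which cuts proteins of the basement membrane, differed from Scramble by less than 2-fold in all 3 knockouts on the fitted scale, but by slightly more in JunDKO at equal library medians (-1.02) and with quantile normalization (-1.03). Its libraries read 14.3 and 11.8 RPKM in Scramble, 7.52 and 6.65 in Atf3KO, 18.7 and 13.9 in JunKO, with 7.89 and 6.93 in JunDKO. Atf3KO and JunDKO lay below Scramble, and JunKO overlapped it. The differences were -0.79 ± 0.22, 0.29 ± 0.22 and -0.74 ± 0.22. The JunKO difference was 0.09 without JunKO replicate 1 and 0.49 without JunKO replicate 2. Exons of Mmp19 overlap those of Tmem198b on the other strand.

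Timp2 was the one inhibitor with substantial RNA in iBMDMs. It measured 63.9 and 60.1 RPKM in Scramble, 82.9 and 96.7 in Atf3KO, 62.0 and 63.4 in JunKO, with 71.4 and 68.1 in JunDKO. Atf3KO was above all others, with a difference of 0.52 ± 0.16 (log2, SE) that was 0.27 with the GC trend removed. JunKO (0.02 ± 0.16) overlapped Scramble, and JunDKO (0.17 ± 0.16) lay just above it but was at -0.11 with equal library medians and -0.03 with the GC trend removed.

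**Figure D2:**
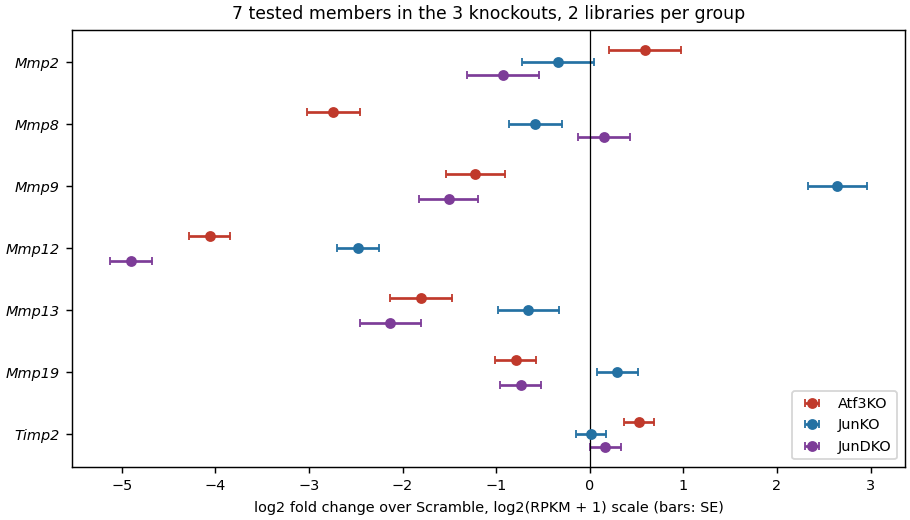
Log2 fold change over Scramble (x axis, log2(RPKM + 1) scale, bars are SE) of the 7 genes that passed the filter on low values, in Atf3KO, JunKO and JunDKO with 2 libraries per group. Mmp12 was lower in all 3 (-4.06, -2.48 and -4.90), Mmp9 was higher in JunKO (2.65) and lower in the others, and Mmp8 was lowest in Atf3KO (-2.74).

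Of the 10 members, 7 averaged 1 RPKM or more in iBMDMs and entered the fit. As the members were picked from these contrasts, nothing is read from the following counts. Libraries of 7, 5 and 6 members did not overlap Scramble in Atf3KO, JunKO and JunDKO, and this held for 70.8%, 37.2% and 61.6% of all genes. The median log2 change over the 7 was -1.22, -0.34 and -0.92, beside 0.05, 0.01 and 0.23 over all genes tested.

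The RNA of enzymes and of inhibitors was also summed over the members, as a description. The 7 metalloproteinases together gave 160 and 182 RPKM in Scramble, 25.6 and 16.4 in Atf3KO, 82.1 and 75.3 in JunKO, with 24.7 and 24.4 in JunDKO. The 3 inhibitors gave 60.2 to 96.7 RPKM over the same libraries, so the ratio of enzyme to inhibitor RNA was 2.47 and 3.02 in Scramble, 1.32 and 1.19 in JunKO, 0.309 and 0.170 in Atf3KO, and 0.345 and 0.359 in JunDKO. The enzyme sums of Scramble and TGEMs rest largely on Mmp12, a gene that the members were picked for. Without it the enzymes gave 40.9 and 40.3 RPKM in Scramble and 60.9 and 51.6 in JunKO. They gave 17.2 and 10.9 in Atf3KO and 21.3 and 21.1 in JunDKO. JunKO thus lay above Scramble in this sum, which still held Mmp9, the other gene the members were picked for. Mmp9 gave 26.7 and 23.5 RPKM in JunKO against 2.30 and 4.25 in Scramble. Mmp12 made up 74.4% and 77.8% of the enzyme sum in Scramble, 13.6% to 33.7% in the knockouts and 90.2% to 97.0% in TGEMs. In TGEMs the ratio was 7.10 to 7.57 in 4 libraries and 13.4 in the Balb/cJ vehicle library. Without Mmp12 the ratio was below 1 in every library. It was then 0.634 and 0.670 in Scramble, 0.982 and 0.814 in JunKO, and 0.406 to 0.723 in TGEMs. These sums are of RNA and hold no measure of active enzyme.

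**Figure D3:**
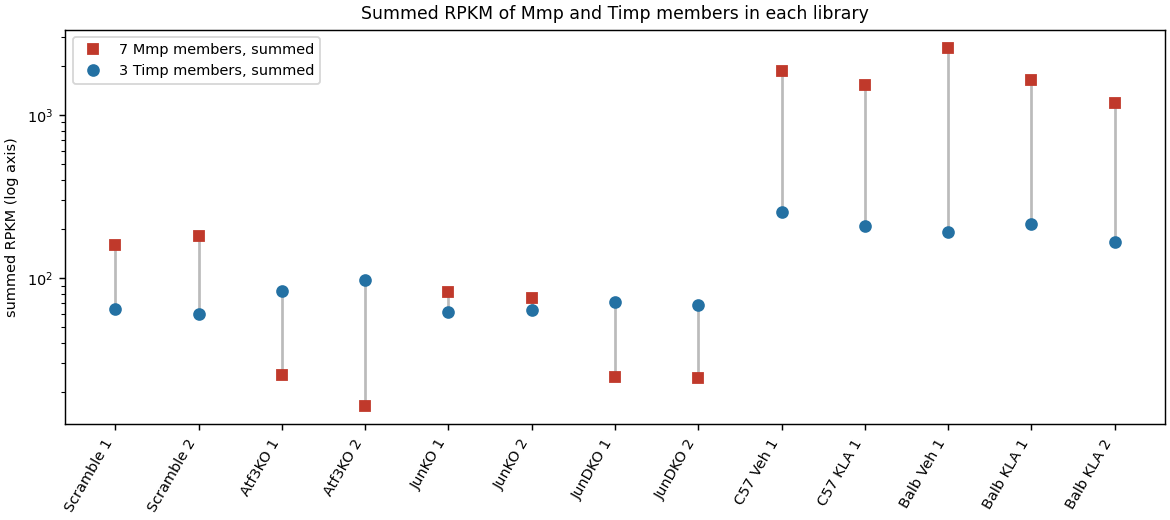
Summed RPKM (log axis) of the 7 Mmp members (squares) and the 3 Timp members (circles) in each of the 13 libraries, joined by a grey line. The Mmp sum was above the Timp sum in Scramble, JunKO and TGEM libraries and below it in Atf3KO (25.6 and 16.4 RPKM) and JunDKO (24.7 and 24.4).

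The cluster on chromosome 9 that holds Mmp13, Mmp12 and Mmp8 contains 10 Mmp models within 427 kb, in the order Mmp13, Mmp12, Mmp1b, Mmp3, Mmp1a, Mmp10, Mmp8, Mmp27, Mmp20 and Mmp7. Mmp3, stromelysin-1, read 1.45 and 1.63 RPKM in Scramble, 0 and 0.326 in JunKO, and 0 in all Atf3KO and JunDKO libraries. Mmp10, stromelysin-2, read 1.20 and 3.39 RPKM in Scramble, 0.341 and 2.37 in JunKO, and likewise 0 in Atf3KO and JunDKO. These are values of 1 to 10 reads, below the filter, and were not tested. Mmp27, next to Mmp8, read 0.630 and 0.355 RPKM in Scramble, 0 and 0.084 in Atf3KO, 0.713 and 0.709 in JunKO, with 1.96 and 1.38 in JunDKO. Its Scramble values rest on 2 reads and 1 read, and Mmp27 too was below the filter in iBMDMs and not tested. In JunDKO, Mmp8 and Mmp27 were not below Scramble, whereas Mmp13, Mmp12, Mmp3 and Mmp10 were. With so few reads of Mmp3, Mmp10 and Mmp27, nothing is read from position in the cluster. Mmp1a, Mmp1b and Mmp7 had no reads in any library, and Mmp20 had 2 reads in a single TGEM library. Of the flanking genes, Dcun1d5 averaged 50.1 RPKM in Scramble and 26.5, 51.6 and 45.7 in Atf3KO, JunKO and JunDKO, and Tmem123 averaged 68.9, 67.9, 62.5 and 56.1 in the same order.

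**Figure D4:**
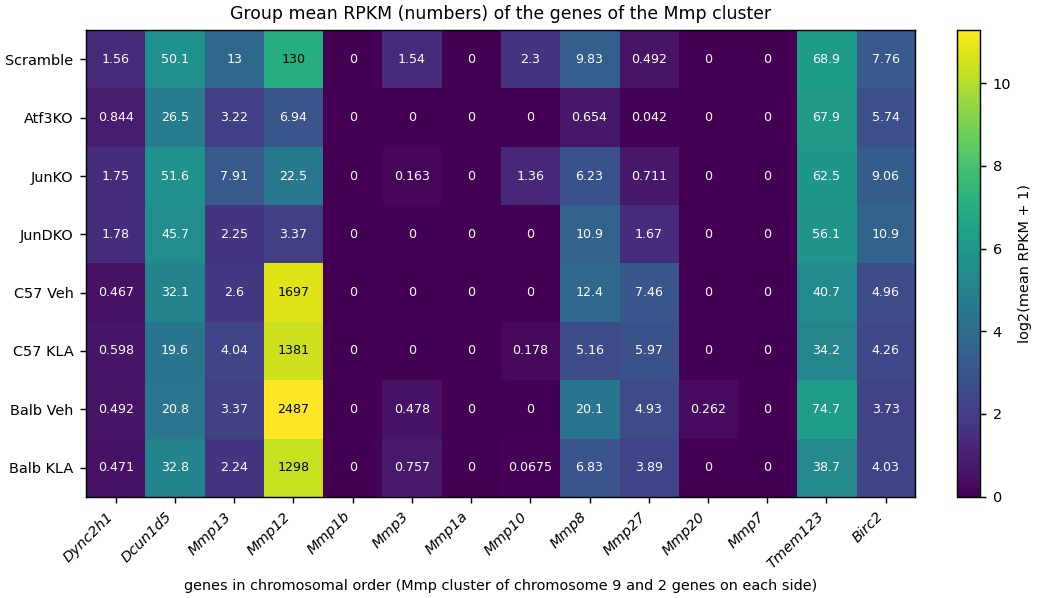
Mean RPKM of each group (numbers, colour is log2 of the mean plus 1) for the genes of the Mmp cluster of chromosome 9 in their order (x axis) with 2 genes on each side. In JunDKO Mmp13 (2.25) and Mmp12 (3.37) were below Scramble (where Mmp12 averaged 130), and Mmp8 was not (10.9 against 9.83).

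Treatment of TGEMs with KLA for 1 h was not used to pick the genes, so it could be tested, with limma-trend over 5 libraries. Calls required 3 things, namely an adjusted p under 0.05, a change of 2-fold or more and 16 RPKM or more as the mean of either group. Of the 10 members, 9 passed the filter, and Mmp2 did not. None was called by limma-trend, where 1.13% of 10357 genes were, and 2 had an unadjusted p under 0.05, as did 15% of all genes. Limma-voom on the recovered reads also called 0, where 2.2% of genes were called, with 3 at an unadjusted p under 0.05 beside 14.3% of genes. The median log2 change was -0.15 over the 9 and -0.15 over all genes.

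Mmp14 measured 64.7 RPKM in C57Bl/6EiJ vehicle and 94.3 after KLA, and 26.8 in Balb/cJ vehicle against 76.7 and 58.9 after KLA. It was thus higher after KLA within each strain, while the lowest KLA library lay below the C57Bl/6EiJ vehicle library. The log2 difference was 0.97 ± 0.30 (SE, 95% interval 0.27 to 1.67, limma-trend adjusted p = 0.218). It was 0.54 without the Balb/cJ vehicle library. Stromal markers summed to 71.3 and 60.2 RPKM in the C57Bl/6EiJ vehicle and KLA libraries, 91.5 in Balb/cJ vehicle, and 83.2 and 46.5 after KLA.

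Mmp8 read 12.4 RPKM in C57Bl/6EiJ vehicle and 5.16 after KLA, and 20.1 in Balb/cJ vehicle against 10.7 and 2.99. Each KLA library lay below both vehicle libraries, with a log2 difference of -1.41 ± 0.45 (limma-trend adjusted p = 0.231). Neutrophil markers, of which 1 or 2 of 10 were above 1 RPKM, summed to 29.0 and 15.2 RPKM in the C57Bl/6EiJ vehicle and KLA libraries, 31.5 in Balb/cJ vehicle, and 35.5 and 19.4 after KLA. Of these markers Ly6g, S100a9 and Camp were at 0 reads in all 5 libraries, and the part of the others in the Mmp8 values was not tested. Mmp12 also lay lower in every KLA library, at 1697 RPKM against 1381 in C57Bl/6EiJ and 2487 against 1502 and 1095 in Balb/cJ. Its difference was -0.67 ± 0.29 (95% interval -1.35 to 0.00494, limma-trend adjusted p = 0.336), and it was -0.30 without the Balb/cJ vehicle library (adjusted p = 0.958). Mmp8 and Mmp12 were the 2 of 9 members whose vehicle and KLA libraries did not overlap, which held for 23.7% of all genes. Neither passed the test.

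The remaining members were spread around 0. Their log2 differences with KLA ran from -0.41 ± 0.36 for Timp3 to 0.89 ± 0.62 for Timp1, with Mmp19 at -0.22, Timp2 at -0.15, Mmp13 at -0.04 and Mmp9 at 0.17 (limma-trend adjusted p = 0.525 to 0.958). The interval for Timp2, -0.77 to 0.47, leaves room for changes of either sign. Timp1 read 3.79 RPKM in C57Bl/6EiJ vehicle and 1.75 after KLA, and 0.971 in Balb/cJ vehicle against 10.6 and 5.71 after KLA. The interaction of treatment and strain was 2.97 ± 0.65 for Timp1, with an unadjusted limma-trend p of 0.00665 and an adjusted p of 0.492 in a fit with 1 residual degree of freedom, and these values rest on 38, 5, 2 and 194 reads in the 4 groups in that order. The treatment value of Timp1 was -0.80 without the Balb/cJ vehicle library and 2.16 without the C57Bl/6EiJ vehicle library. The values of Mmp9, Mmp13 and Timp3 also changed sign without the Balb/cJ vehicle library, and that of Mmp19 did without either C57Bl/6EiJ library. Mmp13 kept its sign in 8 of 15 alternatives. It was above 0 with the GC trend removed (0.19), equal library medians (0.09), quantile normalization (0.09) and limma-voom (0.06). For the interaction limma-trend called 0 of the 9 members, where 0% of genes were, and Timp1 was the 1 member with an unadjusted p under 0.05, as were 8.06% of genes.

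Between the strains, Mmp9 showed the clearest separation. It measured 8.41 and 7.49 RPKM in the C57Bl/6EiJ libraries and 1.62, 2.81 and 2.17 in the Balb/cJ libraries, with no overlap. The log2 difference of Balb/cJ from C57Bl/6EiJ was -1.53 ± 0.27 (95% interval -2.15 to -0.90, limma-trend adjusted p = 0.0378), and it was lower in all 3 Balb/cJ libraries. Both group means (2.20 and 7.95 RPKM) were under the 16 RPKM minimum, so it was not among the genes called. Without that minimum it was the 1 member called, where 2.31% of genes were. The difference was -0.86 with a pseudocount of 5. The adjusted p ranged from 0.00923 to 0.267 over 15 alternatives. It was above 0.05 when the C57Bl/6EiJ vehicle, the C57Bl/6EiJ KLA, the Balb/cJ vehicle (0.267) or the first Balb/cJ KLA library was left out, and also without a filter, after quantile normalization and with the GC trend removed.

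No member was called for strain by limma-trend, where 1.16% of genes were, or by limma-voom, where 3.33% were. At an unadjusted p under 0.05 stood 3 members by limma-trend, beside 21.4% of all genes, and 4 by limma-voom, beside 21.1%. Mmp19 read 60.9 and 38.6 RPKM in C57Bl/6EiJ and 25.6, 31.4 and 23.8 in Balb/cJ, a difference of -0.80 ± 0.29 (limma-trend adjusted p = 0.183). Mmp14 differed by -0.81 ± 0.30 (adjusted p = 0.184), with libraries that overlapped. Both differences were -0.48 without the C57Bl/6EiJ vehicle library, and without the C57Bl/6EiJ KLA library they were -1.22 for Mmp19 and -1.24 for Mmp14. Mmp12 differed by 0.18 ± 0.29 (95% interval -0.50 to 0.85) and was at -0.14 with the GC trend removed and at 0.55 without the C57Bl/6EiJ KLA library. Libraries of 4 members did not overlap between strains, as was the case for 35.1% of all genes. Of these, Mmp9, Mmp19 and Timp2 were lower in Balb/cJ, and Timp3 was higher, at a mean of 3.92 RPKM against 1.83. The Timp3 difference was 0.79 ± 0.36 (limma-trend adjusted p = 0.260). It ran from 0.40 with a pseudocount of 5 to 1.28 without the C57Bl/6EiJ KLA library. The median over the 9 members was -0.25 against -0.08 over all genes. Reads of Balb/cJ were aligned to a genome of that strain, and label dates differ between strains, so strain, reference and date cannot be told apart. Changes by strain across all genes also fell with GC content (Spearman's rho -0.45 across genes), and Mmp9 at 55.2% GC was at -1.23 with that trend removed.

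**Figure D5:**
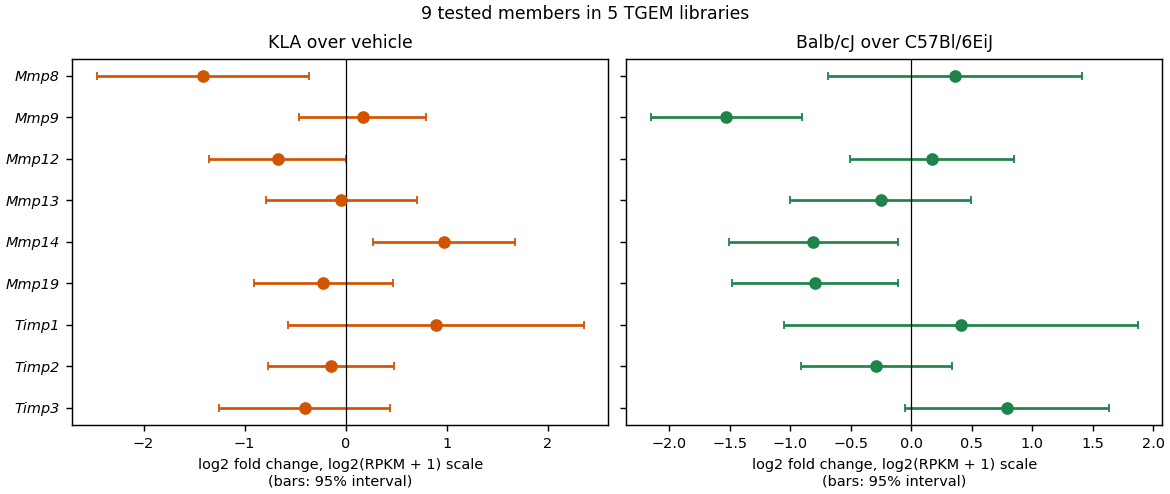
Log2 fold change (x axis, log2(RPKM + 1) scale, bars are 95% intervals) of the 9 genes tested in 5 TGEM libraries, for KLA over vehicle (left) and Balb/cJ over C57Bl/6EiJ (right). Mmp9 was lower in Balb/cJ (-1.53, interval -2.15 to -0.90), and Mmp14 (0.97) and Mmp8 (-1.41) had the farthest intervals from 0 with KLA, neither at an adjusted p under the threshold.

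Other genes of the pathway were taken from lists of 16 further Mmp genes, 14 genes that activate, bind or inhibit metalloproteinases or their plasmin cascade, and 16 ADAM and ADAMTS proteases. Of the further Mmp genes 1 passed the filter in iBMDMs (Mmp24) and 3 did in TGEMs, and none was called in any comparison. Of the 14, 7 were tested in iBMDMs and 9 in TGEMs, and of the 16 proteases 6 and 8.

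In Atf3KO 4 of these 14 tested genes were called, 2 in each direction, where 12.5% of 10691 genes were. Furin, the convertase that activates Mmp14 and other proenzymes, rose by 1.65 ± 0.30 on the log2 scale (limma-trend adjusted p = 0.00444), and Adam15 rose by 1.50 ± 0.32 (adjusted p = 0.00838). Plaur, the receptor of urokinase, fell by 1.46 ± 0.25 (adjusted p = 0.00344), and Cd44, a hyaluronan receptor that also docks Mmp9, fell by 1.02 ± 0.18 (adjusted p = 0.00412). With the GC trend removed Furin (0.91), Adam15 (0.68) and Cd44 (-0.55) were under the 2-fold limit. Adam15 and Cd44 were not called either without Scramble replicate 2 (1.27 and -0.95) or without Atf3KO replicate 2 (1.10 and -0.90), and Cd44 was not with a pseudocount of 5 (-0.95).

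In JunDKO 2 of the 14 were called, against 4.97% of all genes. Plau, the protease urokinase, rose from a mean of 2.80 RPKM to 40.1 (3.55 ± 0.36, limma-trend adjusted p = 7.17e-04), and its receptor Plaur fell from 33.0 to 13.3 (-1.26 ± 0.25, adjusted p = 0.0140). Plau was called in 18 of 18 alternatives, and Plaur in 14 of 18, with adjusted p from 4.66e-04 to 0.131. It was not called without Scramble replicate 1 (-1.11) or 2 (-1.41) or JunDKO replicate 1 (-1.42) or 2 (-1.09). In JunKO 0 of the 14 were called by limma-trend, where 0.196% of genes were, and 2 had an unadjusted p under 0.05 beside 7.88% of genes, with Plau at 1.42 ± 0.36 (adjusted p = 0.269).

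With KLA 2 of the 20 tested pathway genes were called, where 1.13% of all genes were. Both were higher, as were 104 of the 117 genes called in all. Of these, Plau rose from 38.6 to 146 (1.81 ± 0.26, limma-trend adjusted p = 0.0197). Plau was not called when any of the C57Bl/6EiJ vehicle (1.69), C57Bl/6EiJ KLA (1.69), Balb/cJ vehicle (1.97) or first Balb/cJ KLA (1.75) libraries was left out, nor with label date in place of strain (1.91) or without a filter on low values (1.81). Between strains Adam8 was lower in Balb/cJ at a mean of 76.3 RPKM against 197 (-1.34 ± 0.25, limma-trend adjusted p = 0.0477), a call that was lost when any of the 5 libraries was left out (-1.30 to -1.39), with the GC trend removed (-1.06), with a pseudocount of 5 (-1.30) and without a filter on low values (-1.34).

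The genes whose pattern over the 13 libraries was most like that of Mmp12 were Tctn1, Fgfr1 and Pira7, with Pearson's r of 0.974, 0.972 and 0.971 on the log2(RPKM + 1) scale among 6386 models. For Mmp12 the 8 iBMDM and 5 TGEM libraries fall apart, so this likeness is largely one between the 2 kinds of macrophage.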

How the data were processed

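RNA was polyA-selected and sequenced in 13 libraries. STAR with its defaults was the aligner of the authors, against mm10 for C57Bl/6EiJ and against a strain genome for Balb/cJ, and the deposited values are RPKM over the exons of 24453 gene models made with HOMER, per the file headers. Versions of these tools and a strand option are not given in the sources used here. The authors tested counts with EdgeR, which was not used here because counts were not used as deposited.

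Whole reads were recovered from the steps of RPKM times length. Of values up to 50 reads, 100% lay within 0.05 of a whole number. Models averaging 1 RPKM or more in a fit's libraries were tested with limma-trend on log2(RPKM + 1), two-sided, with Benjamini-Hochberg adjustment over all tested. Fits used 8 iBMDM libraries with a term per group (4 residual degrees of freedom) or 5 TGEM libraries with treatment and strain (2 residual degrees of freedom). Calls needed an adjusted p under 0.05, 2-fold and 16 RPKM in either group. Scripts were tested on simulated data.

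The members and lists were chosen with earlier results of these data known. Named are all members, listed pathway genes that were called, Mmp genes of the cluster, the targeted genes, and the 3 models most like Mmp12. The models most like Mmp9 and 1 of the called pathway genes are not reported here. The flanking genes Dcun1d5 and Tmem123, and Plau in JunKO, were named after their values were seen. Replicates are biological per the submitters' series text, and those of Balb/cJ KLA were numbered in accession order. Read floors cover counting error only. GC content came from RefSeq transcripts (98.81% of models), with a natural spline of 5 degrees of freedom removed per library. Fits were run with limma 3.58.1 in R 4.3.3, and other steps in Python 3.11.15 with pandas 2.3.3, scipy 1.17.1, numpy 2.4.6 and matplotlib 3.10.9. Alternatives changed the pseudocount (0.25 or 5), the filter (none, or 4 RPKM), scaling, libraries fitted, and the model of the values (limma-voom on recovered reads).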

Additional observations from a re-analysis of the deposited data

How the results depend on the processing

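Deviations of same-numbered libraries from their group means correlated at 0.18 to 0.22 among Scramble, JunKO and JunDKO, whose titles share a date, and at -0.12 to -0.21 between Atf3KO and each of them. Same-numbered libraries were thus weakly alike in the first 3 groups and not in all 4. The labels give no pairing, and the source of this likeness was not tested. With the number as a block over all 4 groups the counts of pathway genes called did not move. A block without the Atf3KO libraries was added after seeing the data. Beside the same libraries without a block it moved the count over all genes from 16 to 63 in JunKO and from 546 to 576 in JunDKO, and the counts of pathway genes (0 and 2) did not move.

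Calls of members in the knockouts are not counted here, since these contrasts picked the members. By strain 1 member was called without the RPKM minimum in place of 0, where the share over all genes went from 1.16% to 2.31%. Counts of other pathway genes moved as well. In Atf3KO 4 became 1 with the GC trend removed and 2 to 5 with a replicate left out. In JunDKO 2 became 1 with any replicate left out. With KLA 2 became 1 without a filter or with label date in place of strain, and 0 to 2 with a library left out. By strain 1 became 0 with a pseudocount of 5, without a filter or with the GC trend removed, 2 with a filter of 4 RPKM, without the RPKM minimum, in limma-voom or with all 13 libraries in the fit, and 0 to 1 with a library left out. The causes were not tested. Over all alternatives 25 of these counts moved by more than 1.5 times and 92 did not, and no gene named as called changed sign.

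Depth limits the low members: Mmp2, Mmp14, Timp1 and Timp3 had 1 to 103 reads over all iBMDM libraries together. Where a group of 1 library was left out or left alone, the spread of the other groups was assumed for it.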
